A study of Mus musculus with 6 samples.

Results

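The genes of MHC class II antigen presentation measured here are H2-Aa, H2-Ab1, H2-Eb1, Cd74, H2-DMa, H2-DMb1, H2-Oa, H2-Ob and Ciita, 9 of the 16623 genes in the table. They were chosen by name for their known roles, with earlier results of these data known, and all 9 were found. They were followed across dendritic cell subsets, macrophages, monocytes, B cells, endothelial cells and hepatocytes, and compared between WT and SIRT7 KO mice with the mouse as the replicate.

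MHC class II molecules carry peptides from engulfed proteins to the surface of antigen presenting cells, where CD4 T cells read them. The chains pair in the endoplasmic reticulum around the invariant chain, which blocks the groove and steers the complex to endosomes. There the remnant of the invariant chain is exchanged for a peptide with the help of the DM heterodimer, and the DO heterodimer holds DM back. Transcription of these genes depends on CIITA, which binds no DNA itself and is recruited by factors sitting on the X and Y boxes upstream of each gene. In the liver, dendritic cells, Kupffer cells (the resident macrophages) and B cells are the best known carriers of class II, and sinusoidal endothelial cells can carry it as well.

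Livers came from 3 WT and 3 SIRT7 KO mice, all aged 5 to 6 months. SIRT7 is a histone deacetylase, and mice without it are used in this study as a model of fatty liver disease that arises on a chow diet. The KO carried no further allele or treatment named in the labels. Each liver was perfused with collagenase, and hepatocytes and nonparenchymal cells were counted out and mixed in equal numbers for 1 droplet library per mouse, so shares of cells are shares of that mixture and not of the tissue. The table held 11610 cells, from 552 to 5609 per mouse, with 2511947 to 11069411 UMIs (unique molecular identifiers, which count RNA molecules) per mouse. Cell barcodes shared between mice numbered 13. Mean Sirt7 over all cells was 0.718, 0.512 and 0.546 CP10K (counts per 10000 UMIs of a cell) in the WT mice and 0.09999, 0.0814 and 0.1386 CP10K in the KO mice, with no overlap (two-sided exact permutation p = 0.1, which is the smallest that 3 mice against 3 can give).

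WT mouse 3 stood apart from the other WT mice before any test. Antigen presenting classes made up 9.82% and 10.9% of the cells in WT mice 1 and 2 but 35.8% in WT mouse 3, beside 49.1%, 34.1% and 20.5% in KO mice 1 to 3. Summed over all cells of a mouse, H2-Aa, H2-Ab1, H2-Eb1 and Cd74 together reached 29.5, 33.7 and 153 CP10K in the WT mice and 133, 139 and 76.2 CP10K in the KO mice. In such whole-library sums, the number of antigen presenting cells and the RNA in each of them cannot be told apart. The comparisons below are therefore made within cell classes, and results that rest on WT mouse 3 are given with and without it. As these same genes set that mouse apart, fits without it are descriptions and give no support for a genotype difference.

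On GRCm38 with GENCODE M21 annotation, 7 of the 9 genes lie in 224.3 kb of chromosome 17, all protein coding. In order they are H2-Oa (34092340 to 34095234), H2-DMa (34119541 to 34139101), H2-DMb1 (34153072 to 34160230), H2-Ob (34238903 to 34254414), H2-Ab1 (34257689 to 34269419), H2-Aa (34282744 to 34287823) and H2-Eb1 (34305867 to 34316674), and H2-Aa alone of these is on the minus strand. Ciita lies on chromosome 16 from 10480059 to 10528418. H2-DMb1 has the close copy H2-DMb2 beside it, and H2-Eb1 has H2-Eb2, so reads of each pair could be divided between near-identical genes, and their values are less certain for that reason.

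The promoter table of RefSeq (GRCm38.p6, 250 bases before to 50 after each start) held 6 of the 9 genes: H2-Aa, H2-Eb1, H2-DMa, H2-DMb1, H2-Oa and H2-Ob. The bases from 110 to 31 before the RefSeq start are shown for 5 of them, read 5′ to 3′ on the gene's own strand, because this is where the boxes read by the CIITA complex lie. Capitals mark ACNGATG (core of the X1 box), CTGATTGG (core of the Y box), or, where the longer Y core is missing, its inner GATTGG, which was searched after the promoters had been seen.
H2-Aa (chr17:34287854-34287933, minus strand): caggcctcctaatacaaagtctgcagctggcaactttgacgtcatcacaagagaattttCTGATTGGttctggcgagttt
H2-Eb1 (chr17:34305757-34305836, plus strand): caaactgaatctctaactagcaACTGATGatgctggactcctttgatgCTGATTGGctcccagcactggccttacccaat
H2-DMb1 (chr17:34153081-34153160, plus strand): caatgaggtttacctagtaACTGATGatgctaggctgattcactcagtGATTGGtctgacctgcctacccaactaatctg
H2-Oa (chr17:34092269-34092348, plus strand): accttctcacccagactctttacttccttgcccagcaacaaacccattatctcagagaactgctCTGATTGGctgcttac
H2-Ob (chr17:34238795-34238874, plus strand): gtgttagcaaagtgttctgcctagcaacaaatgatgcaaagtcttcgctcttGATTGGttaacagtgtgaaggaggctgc
The Y core stood in H2-Aa, H2-Eb1 and H2-Oa, with its first base at -51, -62 and -46 from the start. On either strand it was present in 4.09% of 32817 promoters of the same length. The X1 core stood in H2-Eb1 (-88), H2-DMb1 (-91) and H2-Oa (-137, outside the stretch shown), and on the opposite strand in H2-Aa (-232), against 9.85% of all promoters. GATTGG, which every Y core contains, was also present in H2-DMb1 (-62) and H2-Ob (-58), against 16.1% of all promoters. H2-DMa had 2 promoter windows in the table, and the only match of the 3 motifs in them was a GATTGG at -199 from 1 of the starts. A match is a run of letters and not a measured binding site.

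The table named no cell types, so cells were grouped anew without using any class II gene, and each group was named from its markers. The dendritic groups were led by Xcr1, Wdfy4 and Clec9a (cDC1-like, 284 cells, the cross-presenting type), Cd209a and Napsa (cDC2-like, 226 cells), Ccr7 and Ccl22 (migratory DC-like, 64 cells) and Siglech and Klk1 (plasmacytoid or pDC-like, 202 cells). The Kupffer genes Clec4f, Vsig4 and Cd5l headed the 2456 cells of the macrophage-like group. A second group of 536 macrophages carried Kupffer markers at a lower level and was led by Retnla and Cx3cr1; it is called by these genes. Monocyte-like (490), B-like (168), plasma B-like (439), endothelial-like (533), hepatocyte-like (2929) and T/NK-like (1625) cells carried the markers of their names. H2-Eb1, H2-Ab1, Cd74 and H2-Aa came out among the 10 leading genes of the Retnla/Cx3cr1 macrophages, H2-Oa among those of cDC2-like and H2-Ob among those of B-like cells, although none of them had a part in the grouping. Levels by class are descriptions without a test, as the classes were drawn from the same cells.

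The peptide-binding chains H2-Aa, H2-Ab1 and H2-Eb1 were highest in conventional dendritic cells and Retnla/Cx3cr1 macrophages. The levels that follow are means per mouse in CP10K, for mice with at least 20 cells of the class. H2-Aa, the alpha chain of I-A, was 75.6 in WT mouse 3 and 63.5 and 65.1 in KO mice 1 and 2 in cDC1-like cells. In cDC2-like cells the same mice had 72.3, 64.8 and 73.9. In Retnla/Cx3cr1 macrophages it was 67.2 in WT mouse 3 and 60.1, 77.6 and 86.6 in the KO mice. These 3 groups and the migratory DC-like cells (70.2 and 80.0 in KO mice 1 and 2) overlapped one another. Macrophage-like cells came next, with a median of 40.6 and mice from 25.6 to 62.0. They lay below all values of conventional and migratory dendritic cells, while WT mouse 3, their highest, passed the lowest Retnla/Cx3cr1 value. Monocyte-like (24.7 to 53.8), B-like (19.3 to 31.1) and pDC-like cells (19.6 and 30.6) each overlapped the group before.

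H2-Ab1, the beta chain of I-A, and H2-Eb1, the beta chain of I-E, followed the same order with small exchanges of rank. H2-Ab1 was led by cDC1-like cells (76.7 to 87.0), and H2-Eb1 by migratory DC-like cells (67.4 and 95.9), both within the spread of the next group. Macrophage-like cells held 0.616 to 0.866 UMIs of H2-Eb1 for each UMI of H2-Aa over 6 mice. In Retnla/Cx3cr1 macrophages that ratio was 0.958 to 1.15 over 4 mice, and in conventional dendritic cells 0.926 to 1.11 over 5 mice. A library of 3′ tags counts each molecule once whatever its length, so no length scaling was used, and ratios are compared between classes rather than genes. H2-Ea, which would encode the alpha chain of I-E, was looked for and was not among the genes of the table.

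**Figure D1:**
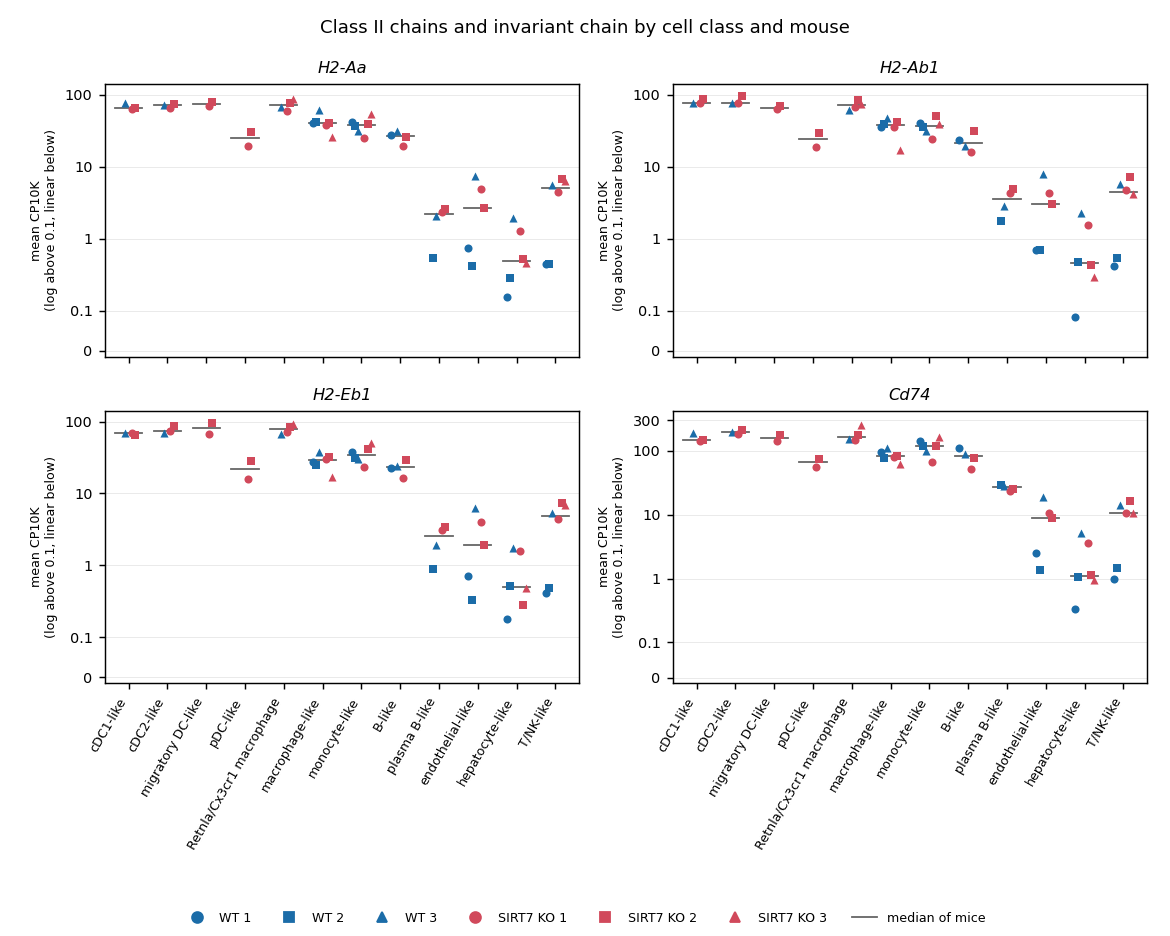
Mean level of H2-Aa, H2-Ab1, H2-Eb1 and Cd74 in CP10K by cell class, with 1 point per mouse (WT blue, SIRT7 KO red, symbol by mouse number) and a line at the median of the mice with at least 20 cells. The axis is logarithmic above 0.1 and linear below; WT mice 1 and 2 lie far under the other mice in endothelial-like and T/NK-like cells.

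Cd74, the invariant chain, gave the most UMIs of the 9 genes in every class. Its level was 199 in WT mouse 3 and 180.5 and 210.2 in KO mice 1 and 2 in cDC2-like cells, the highest median of all classes. Retnla/Cx3cr1 macrophages followed with 148 to 255, migratory DC-like cells with 144 and 176, and cDC1-like cells with 142 to 191, each overlapping the next. Monocyte-like cells (66.6 to 164), B-like cells (51.2 to 111), macrophage-like cells (61.5 to 111) and pDC-like cells (56.3 and 75.7) also overlapped in that order. Plasma B-like cells, which secrete antibody, held 23.2 to 29.0 over 4 mice.

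The balance of Cd74 to H2-Aa, a chain it escorts, differed somewhat among antigen presenting cells and stood further apart in plasma B-like cells. Conventional dendritic cells held 2.40 to 2.88 UMIs of Cd74 per UMI of H2-Aa over 5 mice, macrophage-like cells 1.87 to 2.56 over 6 and monocyte-like cells 2.71 to 3.33 over 6. Macrophage-like and monocyte-like cells did not overlap. Nor did cDC1-like (2.22 to 2.565) and cDC2-like cells (2.78 to 2.82), with 3 mice each. B-like cells held 2.62 to 4.03 over 4 mice. In the 3 mice with enough H2-Aa UMIs, the ratio in plasma B-like cells was 13.7 in WT mouse 3 and 7.91 and 8.29 in KO mice 1 and 2, so every mouse lay above every mouse of the other classes named here. The share of cells with a UMI showed the same. At 1000 UMIs per cell, 79.2% to 85.2% of plasma B-like cells had a UMI of Cd74 but 5.0% to 12.6% had one of H2-Aa. In T/NK-like cells, which should lack both, the shares were 2.76% to 27.9% and 1.38% to 17.7%, so the H2-Aa share of plasma B-like cells was within the T/NK-like range. That range includes T/NK-like cells with dendritic genes, described below. Plasma cell markers, antibody genes among them, summed to 4754 to 5164 CP10K in plasma B-like cells of the mice used. This left fewer of the 1000 UMIs for other genes. Median depth before thinning was 4205 UMIs in plasma B-like and 1352 UMIs in T/NK-like cells.

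**Figure D2:**
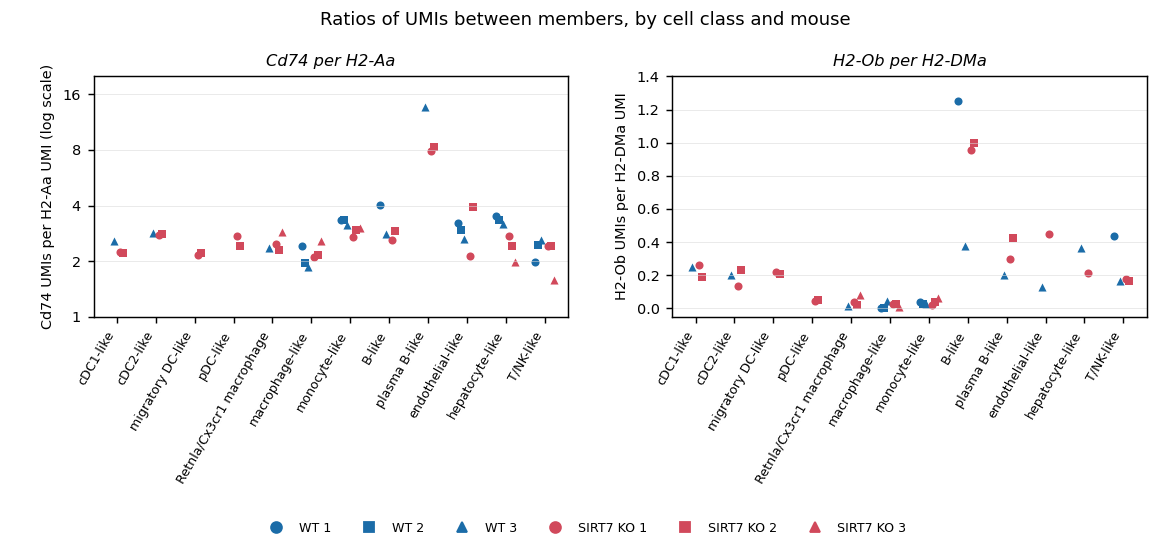
UMIs of Cd74 per UMI of H2-Aa (left, logarithmic axis) and of H2-Ob per UMI of H2-DMa (right, linear axis) by cell class, with 1 point per mouse and only mice with at least 20 cells in the class and 10 UMIs of the lower gene. Plasma B-like cells stand above all other classes on the left, from 7.91 to 13.7, and B-like cells hold the 3 highest values on the right.

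H2-DMa and H2-DMb1, which form the DM heterodimer that loads peptide, were highest in cDC1-like cells, cDC2-like cells and Retnla/Cx3cr1 macrophages. H2-DMa was 8.04 to 9.11 CP10K in cDC1-like, 7.46 to 9.06 in cDC2-like and 5.34 to 8.23 in Retnla/Cx3cr1 macrophages. Macrophage-like (2.998 to 6.00), monocyte-like (3.77 to 4.93), pDC-like (3.99 and 4.30) and migratory DC-like cells (3.71 and 4.49) lay below both dendritic groups and overlapped one another. Migratory DC-like cells thus kept the high level of the peptide-binding chains with 0.0403 and 0.0604 UMIs of H2-DMa per UMI of H2-Aa, against 0.113 to 0.137 in cDC1-like and 0.114 to 0.130 in cDC2-like cells. H2-DMb1 stood at 2.08 and 1.75 CP10K in migratory DC-like cells of KO mice 1 and 2. In the same mice it was 6.36 and 7.58 in cDC1-like and 6.32 and 11.1 in cDC2-like cells, with no overlap. These migratory values rest on 57 UMIs of H2-DMa and 28 of H2-DMb1, and no WT mouse had 20 such cells.

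B-like cells were low in H2-DMb1, at 0.606 and 1.25 CP10K in WT mice 1 and 3 and 0.855 and 0.582 in KO mice 1 and 2, below all macrophage-like and monocyte-like mice. Per UMI of H2-DMa they held 0.188 to 0.455 UMIs of H2-DMb1, against 0.652 to 1.05 in macrophage-like cells. The neighbouring copy H2-DMb2 was among the 10 leading genes of B-like cells, so the beta chain of DM in these cells is not described by H2-DMb1 alone.

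H2-Oa and H2-Ob, the chains of the DO heterodimer that restrains DM, were higher in conventional dendritic and B-like cells than in macrophage-like cells. H2-Ob was highest in B-like cells, at 3.91 and 2.65 CP10K in WT mice 1 and 3 and 1.85 and 4.94 in KO mice 1 and 2. In cDC1-like cells it was 2.49 in WT mouse 3 and 2.54 and 1.67 in KO mice 1 and 2, within the spread of B-like cells. H2-Oa was 3.32 and 2.04 in B-like cells of WT mice 1 and 3, and 0.732 and 2.93 in KO mice 1 and 2. It was 1.32 to 2.29 in cDC1-like and 1.75 to 3.27 in cDC2-like cells.

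In macrophage-like cells both DO chains were close to 0. H2-Oa was 0, 0 and 0.173 CP10K in the WT mice and 0.0618, 0.0667 and 0.0659 in the KO mice, and H2-Ob was 0, 0 and 0.186 and 0.102, 0.0928 and 0.0232. The mice at 0 had 39 and 28 such cells, in which 3 counts would be 0.179 and 0.321 CP10K, so levels up to these could not be seen there. Such floors and all intervals of counts cover counting error only. H2-Ob per UMI of H2-DMa was 0 to 0.0444 in macrophage-like cells, 0.0165 to 0.0787 in Retnla/Cx3cr1 macrophages and 0.0192 to 0.0600 in monocyte-like cells. It was 0.187 to 0.262 in cDC1-like and 0.375 to 1.25 in B-like cells, without overlap with the myeloid groups. At 1000 UMIs per cell, 0% to 1.03% of macrophage-like cells had a UMI of H2-Ob, within the 0% to 2.21% of T/NK-like cells. That range includes T/NK-like cells with dendritic genes, described below, so it is not a clean background.

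In pDC-like cells of the KO mice H2-Ob was low beside H2-Oa. KO mice 1 and 2, the mice with 20 or more of these cells, had 1.13 and 1.87 CP10K of H2-Oa but 0.197 and 0.0972 of H2-Ob. The WT mice had few such cells and differed: WT mouse 3 (16 cells) had 0.825 of H2-Oa and 0.755 of H2-Ob, and WT mouse 1 (6 cells) had 2.32 and 0. Over all pDC-like cells there were 53 UMIs of H2-Oa and 11 of H2-Ob. Per UMI of H2-DMa, H2-Oa (0.275 and 0.339) lay at or above the range of cDC1-like cells (0.163 to 0.271), while H2-Ob (0.0435 and 0.0508) lay below it.

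**Figure D3:**
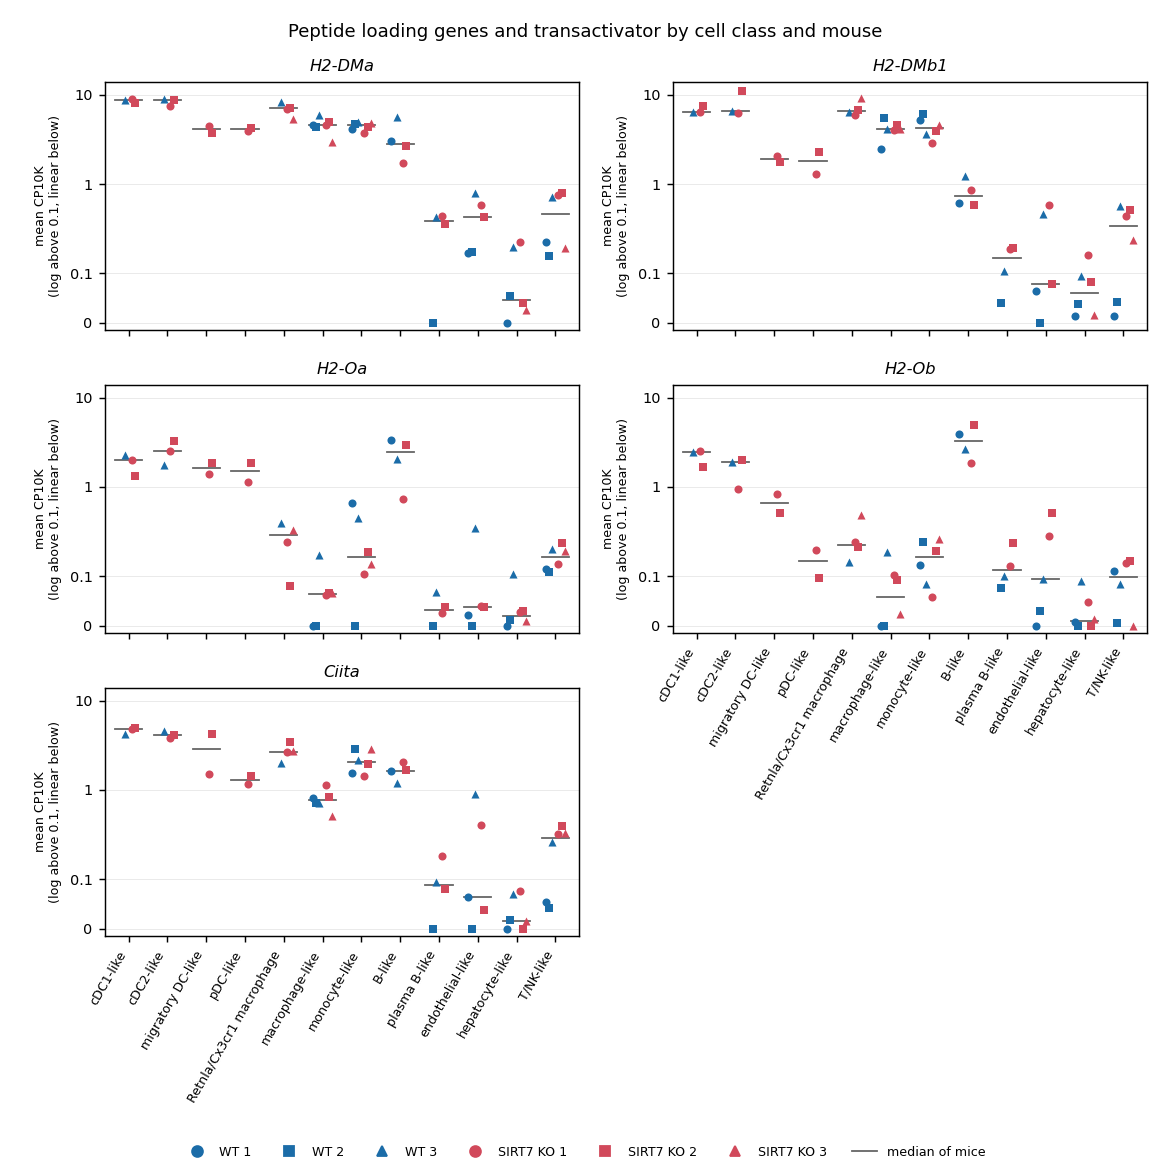
Mean level of H2-DMa, H2-DMb1, H2-Oa, H2-Ob and Ciita in CP10K by cell class, with 1 point per mouse and a line at the median of the mice with at least 20 cells, on an axis that is logarithmic above 0.1 and linear below. H2-Oa and H2-Ob are high in cDC1-like, cDC2-like and B-like cells and near 0 in macrophage-like cells, and H2-Ob is also low in pDC-like cells; in macrophage-like cells WT mice 1 and 2 have no UMI of either.

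Ciita, the transactivator, was highest in cDC1-like cells at 4.26 CP10K in WT mouse 3 and 4.76 and 4.90 in KO mice 1 and 2, and next in cDC2-like cells at 4.60, 3.84 and 4.11. Migratory DC-like cells had 1.51 and 4.25. Retnla/Cx3cr1 macrophages (2.003 to 3.42), monocyte-like (1.43 to 2.85), B-like (1.21 to 2.05) and pDC-like cells (1.16 and 1.42) followed, each overlapping the next. Macrophage-like cells held 0.513 to 1.15, just below both of these pDC-like values, although their H2-Aa lay above that of pDC-like cells in 5 of 6 mice. In WT mouse 3 (16 cells) and WT mouse 1 (6 cells), left out for their few cells, pDC-like Ciita was 1.05 and 0.716. Those values lie within the macrophage-like range. Hepatocyte-like cells had the lowest median, with mice from 0 to 0.0767.

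Across 14 classes with a mouse of 20 or more cells, the log2 levels of the other genes followed the mean of H2-Aa, H2-Ab1, H2-Eb1 and Cd74 unevenly. Pearson's r was 0.97 for H2-DMa, 0.96 for Ciita, 0.93 for H2-DMb1, 0.71 for H2-Oa and 0.63 for H2-Ob. Among 6570 genes outside the pathway list, the highest were Filip1l (0.91), Wdfy4 (0.91), Nckap1l (0.90), Batf3 (0.90) and Baz1a (0.90). These coefficients run over classes that share libraries and depth, and are given as descriptions.

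Where the class II molecules of a library sat differed between the mice. Conventional dendritic cells held 30.1%, 45.2% and 36.1% of all UMIs of H2-Aa, H2-Ab1, H2-Eb1 and Cd74 in the WT mice, and 9.46%, 16.8% and 18.6% in the KO mice. Every KO mouse lay below every WT mouse. Macrophage-like cells held 21.2%, 11.9% and 12.3% of them in the WT mice and 50.4%, 22.98% and 14.8% in the KO mice, with overlap. The share of macrophage-like cells among all cells was 3.14%, 3.001% and 10.3% in the WT mice and 33.6%, 15.6% and 8.88% in the KO mice, again with overlap. Conventional DC-like cells numbered 20 of 1243, 23 of 933 and 130 of 1094 cells in the WT mice. In the KO mice they numbered 244 of 5609, 142 of 2179 and 15 of 552, and these shares overlapped between the genotypes. Clusters set aside held 7.13% to 28.7% of the class II UMIs and count in the total. No test was run on these shares.

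Within classes, the fit of all genes called none of the 9 genes different between SIRT7 KO and WT mice in any of the 8 classes compared. The fit was limma on log2(mean CP10K + 0.05) per mouse, with p-values adjusted by Benjamini-Hochberg over all genes of a class. Log2 fold changes below are KO minus WT on that scale and are given ± SE. The added 0.05 draws in changes of low genes. Where mice of a genotype differ widely, averaging logs can also enlarge a change or give it the opposite sign to the plain means. A p that misses the threshold does not show that the genotypes were alike. Voom on summed UMIs, run as a second tool, called 2 members in plasma B-like cells, where it called 0.587% of all genes, and 0 in the other classes. It called 0.0851% of all genes in conventional DC-like, 0.506% in macrophage-like, 0.141% in monocyte-like, 0% in B-like, 0.0375% in endothelial-like, 13.9% in hepatocyte-like and 0.354% in T/NK-like cells. The 20-cell limit left 3 WT and 2 KO mice for conventional DC-like and endothelial-like cells, 2 and 2 for B-like and plasma B-like cells, and 3 and 3 for the other classes. All 9 genes passed the filter on low values except H2-Oa in plasma B-like cells and H2-Oa, H2-Ob and Ciita in hepatocyte-like cells.

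In conventional DC-like cells, pooled over subsets because no subset had enough mice, the members stayed close between genotypes, from -0.28 for Cd74 to 0.08 for H2-Ab1. Called were 0 of 9, where 0.0213% of 9396 genes were called, all lower in KO. Cd74 was 217, 205 and 193 CP10K in WT mice 1 to 3 and 158 and 179 in KO mice 1 and 2, and was the only member with no overlap, where 10.5% of all genes lay lower and 8.22% higher in KO without overlap. Its log2 fold change was -0.28 ± 0.10 (adjusted p = 0.9997 in limma; two-sided exact permutation p = 0.1, which 3 against 2 cannot go below). It was also the only member with an unadjusted limma p under 0.05, where 4.16% of all genes had one. KO mouse 3, with 15 such cells, was left out of the fit, and its Cd74 mean of 254 lay above every other mouse. With it in the fit, the fold change of Cd74 was -0.09 ± 0.14. H2-Aa was 78.3, 67.4 and 74.1 in the WT mice and 64.8 and 71.6 in the KO mice, which overlapped. The mixture of subsets behind these means differed, with 6 cDC1-like cells of 20 in WT mouse 1, 88 of 130 in WT mouse 3 and 115 of 244 in KO mouse 1; its part in the Cd74 value was not tested. Kupffer marker genes, 10 in the list, summed to 0.358 to 1.79 CP10K in the WT mice and 1.78 to 4.89 in the KO mice.

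The subsets could be compared with 2 mice per genotype when mice with 10 cells were let in. In cDC1-like cells Cd74 then had a log2 fold change of -0.46 ± 0.11 (adjusted p = 0.222 in limma), and in cDC2-like cells -0.16 ± 0.11 (adjusted p = 0.911). No member was called in either, where 0.0664% and 0% of all genes were. Retnla/Cx3cr1 macrophages had 3 mice per genotype at 10 cells, and 8 of the 9 genes had a positive log2 fold change there, with 0 called, where 0.18% of 9464 genes were. The median was 0.23 over the members and 0.19 over all genes, so the members lay near the shift of the whole table. The highest among the abundant genes was H2-Ab1 at 0.46 ± 0.18 (adjusted p = 0.625). H2-Ab1 was 57.2, 45.3 and 62.3 CP10K in the WT mice and 67.9, 83.99 and 74.0 in the KO mice. These did not overlap, while H2-Aa, H2-Eb1 and Cd74 did. The values of WT mice 1 and 2 rest on 11 and 13 cells. How many of all genes lay apart without overlap was not counted in this class.

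In macrophage-like cells 0 of 9 genes were called, where 0.165% of 9684 genes were (0.0826% higher and 0.0826% lower in KO). None lay apart without overlap, where 7.98% of all genes were higher and 8.71% lower in KO in that way. H2-Aa was 40.4, 41.2 and 62.0 CP10K in the WT mice and 37.8, 40.7 and 25.6 in the KO mice. WT mouse 3 was the highest and KO mouse 3 the lowest, and the others overlapped. Its log2 fold change was -0.46 ± 0.21 (adjusted p = 0.462 in limma), the only member with an unadjusted p under 0.05, where 10.2% of all genes had one. Cd74 was 96.2, 77.3 and 111 in the WT mice and 80.5, 83.7 and 61.5 in the KO mice (log2 fold change -0.33 ± 0.17). H2-Ab1 had -0.47 ± 0.26 and H2-Eb1 -0.21 ± 0.23. These values rested on single mice. Without KO mouse 3 they were -0.26 for H2-Aa, -0.19 for Cd74, -0.084 for H2-Ab1 and 0.084 for H2-Eb1, and without WT mouse 3 they were -0.26, -0.21, -0.36 and -0.036. Markers of recruited macrophages summed to 0.559, 0.418 and 1.04 CP10K in the WT mice and 5.18, 6.89 and 1.79 in the KO mice. Kupffer markers summed to 294, 236 and 261 in the WT mice and 305, 299.8 and 356 in the KO mice. Neither sum overlapped between the genotypes, and their part in the class II values was not tested. The DO chain H2-Oa had 0.48 ± 0.70, from values at or under the floor of 3 counts in WT mice 1 and 2. KO mouse 3 had the lowest share of H2-Aa positive macrophage-like cells at 1000 UMIs, 71.1% against 91% to 99.0% in the other mice, but 95.6% of its cells had a UMI of Cd74. The share in T/NK-like cells was 1.38% to 17.7%, with median depths of 2153.5 UMIs in macrophage-like and 1352 UMIs in T/NK-like cells before thinning.

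In monocyte-like cells 0 of 9 genes were called, where 0.239% of 9207 genes were (0.0434% higher and 0.196% lower in KO). None had an unadjusted limma p under 0.05, where 6.88% of all genes had one. None lay apart without overlap, where 4.65% of all genes were higher and 7.1% lower in KO in that way. Cd74 was 143, 119 and 101 CP10K in the WT mice and 66.6, 119 and 164 in the KO mice, so KO mice held both the lowest and the highest value. The log2 fold changes were -0.13 ± 0.38 for Cd74 and 0.17 ± 0.21 for H2-Eb1, and the widest was H2-Oa at -0.46 ± 0.84, from 25 UMIs in all. The fold changes of these 3 genes changed sign when single mice were left out. KO mouse 1, the lowest in Cd74, had a Kupffer marker sum of 6.19 CP10K, against 0.384 to 2.19 in the other mice. Its neutrophil markers summed to 8.555 against 0.387 to 2.70, and its basophil markers to 5.39 against 0. The part of these markers' cells in the Cd74 value was not tested.

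In B-like cells Cd74 was 111 and 90.1 CP10K in WT mice 1 and 3 and 51.2 and 76.4 in KO mice 1 and 2. The groups did not overlap, and the log2 fold change was -0.68 ± 0.19 (unadjusted p = 0.000473, adjusted p = 0.368 in limma; two-sided exact permutation p = 0.333, the lowest that 2 against 2 can give). No member was called, where 0.0108% of 9301 genes were, all higher in KO, and Cd74 was the only member with an unadjusted p under 0.05, against 3.5% of all genes. WT mouse 2, with 15 B-like cells, had 111. With it in the fit the fold change was -0.73 ± 0.16 and passed the threshold (adjusted p = 0.0122), where 0.214% of all genes did. Without overlap, 3 members were lower in KO (H2-Aa, Cd74 and H2-DMa) and Ciita was higher, where 12.9% and 16.1% of all genes were lower and higher in that way. H2-DMa was 3.06 and 5.63 in the WT mice and 1.74 and 2.64 in the KO mice (-0.94 ± 0.59), and Ciita 1.63 and 1.21 and then 2.05 and 1.66 (0.38 ± 0.69). B cell markers moved with these values: the 10 genes of the list summed to 94.0 and 75.5 CP10K in WT mice 1 and 3 and to 46.8 and 64.1 in KO mice 1 and 2. T cell markers summed to 0 and 2.92 in the same WT mice and to 6.67 and 10.8 in the KO mice. Their part in the Cd74 value was not tested.

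In plasma B-like cells the peptide-binding chains were low, and the genotypes did not overlap among the mice with 20 cells. H2-Eb1 was 0.892 and 1.93 CP10K in WT mice 2 and 3 and 3.13 and 3.44 in KO mice 1 and 2 (log2 fold change 1.29 ± 0.37, adjusted p = 0.391 in limma). H2-Ab1 was 1.78 and 2.84, then 4.25 and 4.95 (1.01 ± 0.32), and H2-Aa 0.543 and 2.04, then 2.35 and 2.55 (1.17 ± 0.49). These were the 3 members with an unadjusted p under 0.05, where 6.53% of 7670 genes had one. None was called, where 0.0782% of all genes were (0.0522% higher and 0.0261% lower in KO). Without overlap, 5 members were higher and Cd74 alone was lower in KO, where 25.5% and 11.2% of all genes were. Cd74 was 29.0 and 28.1 in the WT mice and 23.2 and 25.5 in the KO mice (-0.23 ± 0.22). WT mouse 1 (12 cells) and KO mouse 3 (14 cells), left out for their few cells, had H2-Aa at 1.86 and 0.510. With both in the fit, the fold changes were 0.95 ± 0.39 for H2-Eb1, 0.70 ± 0.32 for H2-Ab1 and 0.19 ± 0.74 for H2-Aa, and no member was called, where 0.0136% of all genes were. Without WT mouse 3, which leaves WT mouse 2 alone and assumes that it varies like the KO mice, H2-DMa, H2-Ab1, H2-Aa and H2-Eb1 were called higher in KO, in a fit that called 9.38% of all genes. H2-DMa, at 0 and 0.424 in the WT mice and 0.443 and 0.356 in the KO mice, went from 1.54 ± 0.90 to 3.16 ± 0.56 in that fit. The H2-Aa share of cells stood within the T/NK-like range, with the limits given above. Neutrophil markers in these cells summed to 0.0904 and 0.248 in the WT mice and to 22.4 and 13.7 in the KO mice, but to 0.0399 in KO mouse 3, and their part in the result was not tested.

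**Figure D4:**
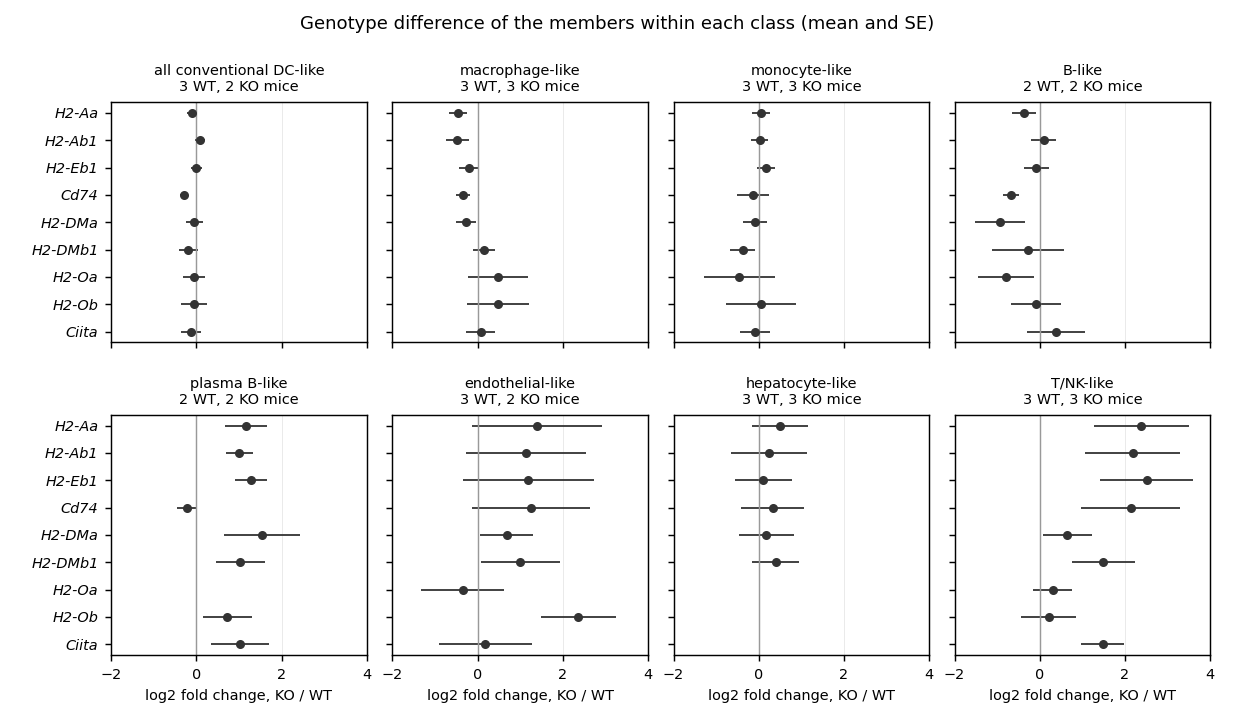
Log2 fold change of each gene between SIRT7 KO and WT mice in 8 cell classes, with bars for the standard error of the limma fit and the number of mice above each panel. H2-Oa in plasma B-like cells and H2-Oa, H2-Ob and Ciita in hepatocyte-like cells were under the filter on low values; no point passes the adjusted threshold, and bars are widest in endothelial-like and T/NK-like cells.

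Endothelial-like, hepatocyte-like and T/NK-like cells held little class II RNA, and there WT mouse 3 stood apart from WT mice 1 and 2. In endothelial-like cells Cd74 was 2.48, 1.37 and 18.8 CP10K in WT mice 1 to 3 and 10.6 and 8.94 in KO mice 1 and 2. H2-Aa was 0.740, 0.415 and 7.32, then 4.94 and 2.68. WT mouse 3 was the highest and WT mice 1 and 2 the lowest for both. Plain means over the mice were 7.55 in WT and 9.78 in KO for Cd74, and 2.825 and 3.81 for H2-Aa. The log2 fold changes were 1.26 ± 1.38 for Cd74 and 1.404 ± 1.52 for H2-Aa, and 0 of 9 genes were called, where 0.272% of 10669 genes were (0.075% higher and 0.197% lower in KO). Without WT mouse 3, H2-Aa, H2-Ab1, H2-Eb1 and Cd74 were called, where 0.649% of all genes were. Cd74 then had 2.37 ± 0.39 (adjusted p = 0.00164 in limma) and H2-Aa 2.61 ± 0.42. WT mouse 3 was singled out above by its high level of these 4 genes, so that fit cannot serve as support. H2-Ob was the only member without overlap, where 9.45% of all genes were higher and 12.8% lower in KO in that way, and the only one with an unadjusted p under 0.05, where 7.14% of all genes had one. It was 0, 0.0289 and 0.0948 in the WT mice and 0.280 and 0.505 in the KO mice (2.37 ± 0.88, adjusted p = 0.483), from 16 UMIs in all. H2-Oa had -0.34 ± 0.97, from 14 UMIs. In a blocked fit, which drops WT mouse 3 because KO mouse 3 had 8 such cells, 4 members were called as well, where 1.58% of all genes were. At 1000 UMIs per cell, a UMI of any of H2-Aa, H2-Ab1, H2-Eb1 and Cd74 was seen in 3.03%, 5.21% and 36.5% of endothelial-like cells in the WT mice and in 35.8% and 25.0% in KO mice 1 and 2.

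In hepatocyte-like cells Cd74 was 0.337, 1.06 and 5.16 CP10K in the WT mice and 3.66, 1.14 and 0.949 in the KO mice, with full overlap. H2-Aa was 0.155, 0.280 and 1.92, then 1.26, 0.516 and 0.462. Plain means over the mice were slightly lower in KO than in WT, unlike the log2 fold changes that follow. They were 1.92 against 2.19 for Cd74, 0.745 against 0.783 for H2-Aa and 0.776 against 0.806 for H2-Eb1. The log2 fold changes were 0.33 ± 0.74 for Cd74, 0.50 ± 0.66 for H2-Aa and 0.10 ± 0.67 for H2-Eb1, and each changed sign when single mice were left out. With voom on summed UMIs they were far larger, 2.26 for Cd74, 3.03 for H2-Aa and 2.38 for H2-Eb1. In the voom fit 3 of 6 members had an unadjusted p under 0.05, beside 3000 of 9814 genes, and 0 members were called. In the limma fit none of the 6 genes tested was called, where 0.112% of 9814 genes were (0.0204% higher and 0.0917% lower in KO). None had an unadjusted p under 0.05, where 7.34% of all genes had one, or lay apart without overlap, where 9.67% of all genes were higher and 3.19% lower in KO in that way. Deviations of same-numbered mice had low positive correlations in this class, and the labels do not pair the mice. With the replicate block 0 members were called as well, with 18 genes (0.183%) called in place of 11. At 1000 UMIs per cell, a UMI of any of the 4 abundant genes was seen in 3.72%, 10.8% and 21.5% of hepatocyte-like cells in the WT mice and in 31.2%, 15.1% and 6.29% in the KO mice. The shares in T/NK-like cells were 4.48%, 4.83% and 26.9%, then 39.5%, 29.7% and 13.8%, so that hepatocyte-like cells lay above the class that should lack these genes in WT mouse 2 alone. Median depth was 1512 UMIs for hepatocyte-like cells, 1355 UMIs for endothelial-like cells and 1352 UMIs for T/NK-like cells.

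In T/NK-like cells, taken as the class without class II of its own, Cd74 was 0.977, 1.44 and 14.3 CP10K in the WT mice and 10.5, 16.4 and 10.5 in the KO mice. H2-Eb1 was 0.410, 0.484 and 5.29, then 4.45, 7.47 and 7.02. WT mouse 3 lay among the KO mice for both. The log2 fold changes were 2.13 ± 1.16 for Cd74, 2.38 ± 1.11 for H2-Aa and 2.50 ± 1.10 for H2-Eb1, and 0 of 9 genes were called, where 0.192% of 9890 genes were (0.091% higher and 0.101% lower in KO). Ciita alone had an unadjusted p under 0.05, where 6.31% of all genes had one, and no overlap, where 4.95% of all genes were higher and 6.03% lower in KO in that way. It was 0.0526, 0.0415 and 0.261 in the WT mice and 0.316, 0.395 and 0.332 in the KO mice (1.47 ± 0.51, adjusted p = 0.574). H2-Ob had 0.21 ± 0.65. Without WT mouse 3, H2-Aa, H2-Ab1, H2-Eb1 and Cd74 were called higher in KO, where 0.153% of all genes were called. Their changes ran from 3.31 ± 0.28 for Cd74 to 3.65 ± 0.30 for H2-Eb1 (adjusted p = 0.000105 for both in limma). That mouse was singled out by its high level of these same genes, so that fit cannot serve as support. The fold changes of these 4 genes in all 6 mice were larger here than in any antigen presenting class compared.

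These molecules sat in few cells. T/NK-like cells with 10 or more UMIs of H2-Aa, H2-Ab1, H2-Eb1 and Cd74 numbered 2, 1 and 20 in the WT mice and 48, 51 and 2 in the KO mice, or 0.995%, 0.676% and 9.09%, then 7.97%, 12% and 6.90%. The 5% of T/NK-like cells with the most class II held between 64.2% and 97.98% of its UMIs in each mouse. In these 124 cells H2-Aa averaged 51.7 CP10K, against 0.469 in the other 1501. They also held the dendritic gene Cst3 at 66.9 against 1.77, cDC1 markers at 10.9 against 0.957 and cDC2 markers at 7.89 against 0.520. Monocyte markers stood at 23.1 against 12.7, Kupffer markers at 4.37 against 2.69 and B cell markers at 2.41 against 0.358. T cell markers were lower at 15.6 against 35.4, and NK markers at 12.9 against 23.6. The 124 cells had a median depth of 2671.5 UMIs against 1272 and a mean Scrublet doublet score of 0.0742 against 0.0417. The 37 endothelial-like cells picked in the same way had Cst3 at 42.3 against 3.27 and endothelial markers at 100.3 against 219. The 40 hepatocyte-like cells had Cst3 at 41.5 against 1.32 and hepatocyte markers at 125.9 against 280.6. Mean Scrublet scores were 0.148 against 0.0517 in the endothelial-like cells and 0.178 against 0.04085 in the hepatocyte-like cells.

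In the T/NK-like cells with fewer than 10 such UMIs, Cd74 was 0.215, 0.470 and 0.690 CP10K in the WT mice and 1.90, 0.907 and 0.658 in the KO mice. In the endothelial-like cells left it was 0.204, 0.532 and 0.880, then 2.48 and 2.42. In the hepatocyte-like cells left it was 0.280, 0.728 and 1.46, then 1.99, 0.7997 and 0.263. As these cells were set apart by the same UMIs, the values are descriptions without a test. A fixed cut in UMIs also allows a higher CP10K in cells of lower depth. Median depth of all endothelial-like cells was 2531.5, 1886 and 1062 UMIs in the WT mice and 974.5 and 1164 in KO mice 1 and 2. The part of depth in these values was not tested. The summed level of 10 Kupffer marker genes in T/NK-like cells was 0.397, 0.697 and 1.93 in the WT mice and 5.45, 1.56 and 1.14 in the KO mice; Marco was at 0 in the WT mice and in KO mouse 3. In endothelial-like cells that sum was 2.83, 4.57 and 5.16, then 10.1 and 5.18, and in hepatocyte-like cells 1.65, 1.71 and 4.61, then 6.64, 1.99 and 2.01. The part of cells caught together and of RNA from other cells in these levels was not tested.

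**Figure D5:**
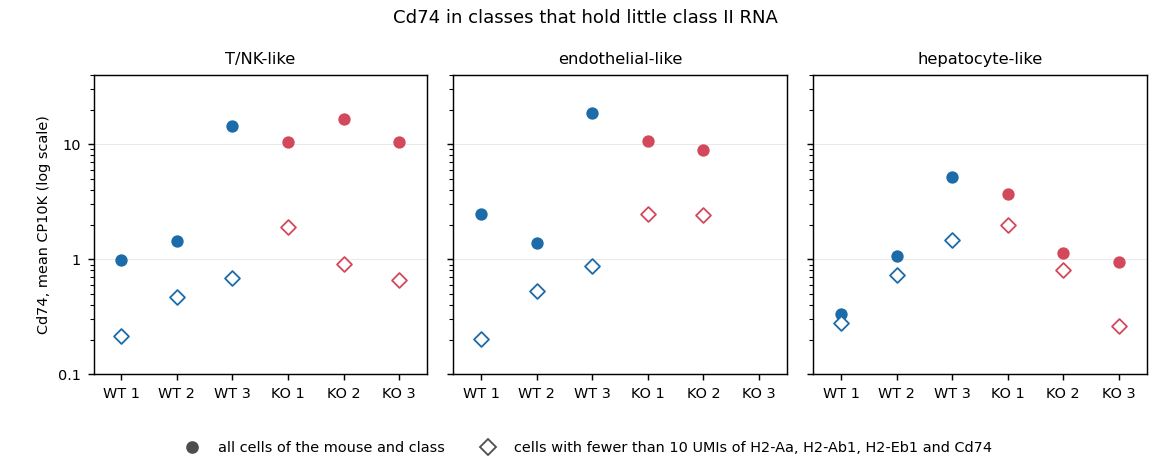
Cd74 in T/NK-like, endothelial-like and hepatocyte-like cells by mouse, in mean CP10K on a logarithmic axis, for all cells (filled) and for cells with fewer than 10 UMIs of H2-Aa, H2-Ab1, H2-Eb1 and Cd74 (open); KO mouse 3 had 8 endothelial-like cells and is not shown there. Filled points of WT mouse 3 lie at 14.3, 18.8 and 5.16, near or above the KO mice, while open points of all mice lie at 2.48 or below.

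Whether the genotype change of a gene differed between classes was tested on within-mouse differences of log2 levels in 4 pairs of classes. For macrophage-like minus T/NK-like cells, H2-Aa differed by -2.84 ± 0.82 and Cd74 by -2.46 ± 0.87 (adjusted p = 0.830 for both in limma), and 5 of 9 members had an unadjusted p under 0.05, where 5.85% of all genes had one. No gene of 8707 was called in that pair. Without WT mouse 1, 2 of 9 members had such an unadjusted p, beside 568 of 8701 genes. Without WT mouse 2 these were 2 of 9, beside 480 of 8702 genes. Without WT mouse 3 they were 7 of 7, beside 719 of 8582 genes. The T/NK-like values sat in few cells, as given above. For conventional DC-like minus macrophage-like cells H2-Aa differed by 0.15 ± 0.50 and Cd74 by -0.09 ± 0.49, with 0 of 9 members and 0 of 8520 genes called. Macrophage-like minus hepatocyte-like and endothelial-like minus hepatocyte-like cells also had 0 members called, of 6 tested in each, and 0 members at an unadjusted p under 0.05 in all 3 pairs without T/NK-like cells, where 3.27%, 6.28% and 5.33% of all genes had one.

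Of the wider pathway, 33 of 37 genes that are not members were in the table, covering class II transcription factors, endosomal proteases, surface turnover, costimulation, class I presentation and interferon gamma signalling. Over 8 classes, the only call among them was Ctsd, the lysosomal protease cathepsin D, which rose in macrophage-like cells of KO mice by 1.30 ± 0.15 (adjusted p = 0.00659 in limma), 1 of 31 tested. The call was lost with no filter on low genes (adjusted p = 0.262), without WT mouse 1 (0.1), WT mouse 2 (0.0619) or WT mouse 3 (0.067), and without KO mouse 3 (0.0664), with fold changes from 1.22 to 1.397 without single mice. In conventional DC-like cells 0 of 33 were called, with a median log2 fold change of 0.36 over the list beside 0.00 over all genes. In macrophage-like cells the medians were 0.27 and 0.00. The members' own medians were -0.06 in conventional DC-like, -0.21 in macrophage-like, -0.08 in monocyte-like and -0.29 in B-like cells. The last 3 changed sign without 1 mouse, to 0.08 in macrophage-like cells without KO mouse 3, to 0.23 in monocyte-like cells without KO mouse 1 and to 0.17 in B-like cells without KO mouse 1, and B-like cells had -0.59 without KO mouse 2. In monocyte-like cells it was also above 0 without WT mouse 1 (0.02) and without WT mouse 2 (0.01). In the classes with little class II they were 1.03 in plasma B-like, 1.13 in endothelial-like, 0.28 in hepatocyte-like and 1.49 in T/NK-like cells. The hepatocyte-like median was -0.47 without WT mouse 1, -0.41 without KO mouse 1, 1.08 without WT mouse 3 and 2.92 with voom. Without single mice the median ran from 0.37 to 2.32 in endothelial-like, from 0.43 to 1.61 in plasma B-like and from 1.15 to 2.49 in T/NK-like cells.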

How the data were processed

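As deposited by the authors, values were natural log of CP10K plus 1, one table for all cells. The submitters' processing notes name Cell Ranger 6.0.0 and mm10. By the study's methods, cells under 500 genes or rich in mitochondrial reads were removed with Scanpy, and the fewest genes in a deposited cell were 500. Exp(x) - 1 gave CP10K. Dividing by each cell's smallest step gave whole UMIs for 100% of 12961041 values (tolerance 0.02). Every cell was mapped to its mouse by its barcode ending, and 0 were unmapped.

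Cells were clustered with scanpy 1.11.5 and leidenalg 0.10.2 (pandas 2.3.3, scipy 1.17.1, numpy 2.4.6 and Python 3.11.15) on the 1000 most variable genes without class II genes, 50 principal components, 3 neighbors from each mouse and resolution 1.5, which gave 24 clusters. The 3 dendritic clusters (1003 cells) were clustered again into 8. Scrublet marked 46 cells (0.396%), too few to count as working, so doublets were kept. Clusters with markers of 2 classes were set aside from all comparisons.

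Mean CP10K per mouse and class (at least 20 cells) was compared with limma 3.58.1 (R 4.3.3; trend and robust, two-sided, genes at a mean of at least 0.05 CP10K, threshold 0.05). The study compared single cells with MAST; that was not used here. The scripts were tested on simulated data. Nothing states how the mice of a genotype were related beyond being separate mice. The members, the lists and the alternatives were chosen with earlier results of these data known. Genes named are the members, Sirt7, pathway genes past the threshold and the 5 genes whose levels over classes were most like the chains. Deviations of same-numbered mice had r above 0.1 in all 3 pairs only in hepatocyte-like cells (0.108, 0.228 and 0.136). Elsewhere at least 1 pair was at 0.1 or below, or fewer than 3 pairs existed. These values are low and were not compared with differently numbered mice, so they do not show that the mice were paired.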

Additional observations from a re-analysis of the deposited data

How the results depend on the processing

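Over the alternatives run in 8 classes, 0 of the 9 genes were called in conventional DC-like, macrophage-like, monocyte-like and hepatocyte-like cells. Members called were 1 in B-like cells at 10 cells per mouse, 2 in plasma B-like cells with voom on summed UMIs and 4 in endothelial-like cells with the replicate block; without single mice they ranged from 0 to 4 in plasma B-like, T/NK-like and endothelial-like cells. The cause of these moves was not tested.

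Genes called over the whole table moved more. In conventional DC-like cells 2 became 5 with no filter, 9 with means of ln values, 8 with voom, 9 with the replicate block, 7 with class II genes kept in the clustering and 13 without the top 5% of Scrublet scores (added after seeing the data), and 1 to 71 without single mice. In macrophage-like cells 16 became 1 with no filter, 49 with voom and 197 with the block, and 1 to 106 without single mice. In monocyte-like cells 22 became 34 with a pseudocount of 0.5, 54 with no filter, 2 with a filter at 0.2, 13 with voom, 35 with the block, 7 with class II genes kept, 11 at resolution 1.0, and 1 to 154 without single mice. In B-like cells 1 became 0 with no filter, with ln values and with voom, 20 at 10 cells and 2 with class II genes kept, and 0 without single mice. In plasma B-like cells 6 became 15 with the pseudocount, 73 with no filter, 62 with ln values, 45 with voom, 1 at 10 cells and 12 without the top Scrublet scores, and 3 to 706 without single mice. In endothelial-like cells 29 became 79 with no filter, 10 with the higher filter, 4 with voom and 169 with the block, and 10 to 281 without single mice. Of genes called, hepatocyte-like cells had 11, which became 3 with the pseudocount and with no filter, 0 with ln values, 1361 with voom on summed UMIs (922 higher and 439 lower) and 18 with the block, and 3 to 30 without single mice. In T/NK-like cells 19 became 12 with the higher filter, 35 with voom and 12 with the block, and 10 to 131 without single mice. Macrophage-like minus hepatocyte-like cells had 0 to 1 genes called without single mice.

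The fold change of H2-Eb1 in monocyte-like cells reversed to -0.14 with ln values, and that of H2-Oa in endothelial-like cells to 0.59 with voom and 0.57 with the block. Ctsd in macrophage-like cells kept its fold change of 1.30 with no filter but had an adjusted p of 0.262. The difference in the share of macrophage-like cells with any of the 4 abundant genes was 0.98 percentage points without thinning. Without single mice, fold changes ranged from -0.42 to 0.23 (Cd74), -0.056 to 0.48 (H2-Eb1) and -1.65 to 0.26 (H2-Oa) in monocyte-like cells. They ranged from -0.55 to 1.32 (Cd74), -0.15 to 1.48 (H2-Aa) and -0.61 to 0.87 (H2-Eb1) in hepatocyte-like cells, from -0.020 to 0.18 for H2-Ab1 in conventional DC-like cells, from -0.081 to 3.16 for H2-DMa in plasma B-like cells and from -0.26 to 0.86 for H2-Ob in T/NK-like cells. The block could not be fitted in B-like and plasma B-like cells, where too few numbers were shared. Median levels of Cd74 by class moved by less than 1 SD in all 97 alternatives.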

Other observations

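Values of 3 further classes belong to no comparison. Neutrophil-like cells of WT mouse 1 (23 cells) had 0 UMIs of all 9 genes, where 3 counts would be 0.843 CP10K, while those of KO mouse 1 (272 cells) and KO mouse 2 (22 cells) had 14.2 and 17.4 CP10K of H2-Aa and 31.1 and 39.96 of Cd74. Among the mice with fewer cells, WT mice 2 and 3 (9 and 15 cells) had H2-Aa at 0.997 and 5.57 and Cd74 at 0 and 16.3, and KO mouse 3 (17 cells) had 1.62 and 8.84, below WT mouse 3. Kupffer marker genes in WT mouse 1 and KO mice 1 and 2 summed to 6.28, 78.6 and 30.8 CP10K. Basophil-like cells, counted in 78 cells of KO mouse 1, had 8.66 of H2-Aa, 10.8 of H2-Ab1 and 25.1 of Cd74, with a Kupffer marker sum of 2.82. Stellate-like cells (52 over all mice) had 12.6 of H2-Aa and 33.9 of Cd74, with a Kupffer marker sum of 62.9, and 0 UMIs of H2-Ob.

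Among the clusters set aside, 40 cells led by Fcgr4 and Clec4a3 had 76.0 CP10K of H2-Aa, 91.5 of H2-Eb1, 191 of Cd74 and 4.58 of Ciita, with 0.124 of H2-Ob. Cells carrying both macrophage and T/NK markers (433) had 35.5 of H2-Aa and 77.3 of Cd74. Cycling T/NK cells (291) had 3.95 of H2-Aa and 10.7 of Cd74, and the mixed cycling cells (272) had 47.7 and 96.7.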
